A study of Homo sapiens with 8 samples.

Results

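SKBR3-labelled breast cancer cells that had received an HSD17B14 plasmid were compared with the same cells given the vector without its insert. The comparison used the 2 arrays titled SKBR3_transfected and the 2 titled SKBR3_control, which are 4 of the 8 arrays of the series, and all 8746 probe sets that are not Affymetrix controls. HSD17B14 is a hydroxysteroid dehydrogenase, an enzyme that oxidises the hydroxyl group of estradiol and related substrates. Messenger RNA was measured on an Affymetrix array with 1 signal per probe set. The other 4 arrays hold ZR75-1, an estrogen receptor positive breast cancer line, under the same plasmid and vector.

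Both SKBR3-labelled groups, described as ER - in the labels, grew in phenol-red free Optimem-I with 4% foetal bovine serum. Both were transfected with FuGene-6, a lipid-based reagent, 24 h after seeding and were harvested 48 h later. The controls thus also carried plasmid DNA and reagent, and differ by the HSD17B14 insert alone as far as the labels say. Expression was transient and driven by a promoter that the labels do not name. Nothing in the labels says whether the 2 arrays of a group came from separate cultures. The p-values then reflect only how far these arrays differ among themselves, which may be technical. In bulk RNA, fewer cells with a transcript and less transcript per cell cannot be told apart.

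Interferons are secreted proteins that cells release when sensors such as RIG-I or MDA5 meet foreign nucleic acid. They bind paired receptors at the cell surface, JAK kinases phosphorylate STAT proteins, and STAT complexes with IRF factors enter the nucleus and bind an interferon-stimulated response element (ISRE) in the promoters of target genes. The products degrade viral RNA, block translation and membrane fusion, tag proteins with ISG15, raise antigen presentation and restrain the pathway itself.

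The cell label was examined first, because ERBB2, the HER2 receptor gene for whose amplification SKBR3 cells are known, was low on these arrays. It read 33.6 and 46.8 in plasmid cells and 25.9 and 33.8 in vector cells, under the 95.9 to 226 of the ZR75-1 arrays. VIM, the mesenchymal filament vimentin, read 3646.2 to 5325.8 on the 4 arrays and 0.4 to 25.7 in ZR75-1. CD44, a surface receptor of mesenchymal and basal cells, read 503.8 to 618.6 against 13.2 to 26.2. KRT19, a luminal keratin, read 652.4 to 793.6 against 3433.4 to 4300.7. The cells are therefore called SKBR3-labelled throughout. None of the tested HER2 amplicon (4), luminal (17), mesenchymal and basal (10), fibroblast (4) and leukocyte (4) markers was called between plasmid and vector in limma, and at an unadjusted p under 0.05 only luminal markers passed (4 higher, 2 lower). VIM did differ without overlap, at 3675.6 and 3646.2 with the insert and 5325.8 and 4637.6 without it, without passing. The other 12 leukocyte markers with a probe set, PTPRC and CD14 among them, were not tested and reached at most 27.4. Not all mesenchymal and basal markers were high, since CDH2, SPARC, KRT5 and KRT14 were not tested and reached at most 21.1 on the 4 SKBR3-labelled arrays. Nor were all luminal markers low, since the 17 summed to 5314.2 to 7109.6 on these arrays, most of it from members other than KRT19.

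All 4 arrays had the same trimmed mean signal of 100.13. Control 1 stood apart, with a correlation of log2 signals of 0.888 to 0.889 with the other 3 arrays, which correlated among themselves at 0.941 to 0.954. Bacillus spike-in controls were low on the arrays numbered 1 (4.72 with plasmid, 4.93 with vector, mean log2) and high on those numbered 2 (6.61 and 6.67). Changes computed within array numbers 1 and within array numbers 2 therefore compare arrays of like spike-in level, and are given for the interferon and ribosomal medians. For single genes they could differ, as for OAS2 (3.11 and 1.93) and IRF7 (0.71 and 1.26), or be close, as for MX1 (1.83 and 1.94).

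HSD17B14 read 650.7 and 743.6 with HSD17B14 plasmid against 2 and 4.2 with vector, on a probe set that may also bind related sequences. The plasmid arrays lay far above the controls. Both controls were under 17.6, the 40th percentile of the array where that was highest, which serves as a floor for weak signals. Against that floor the signal was at least 39.5-fold higher (log2 change 7.91 ± 0.78, limma adjusted p = 0.000142). Each error after a log2 change is the standard error from limma (n = 2 arrays per group), and adjusted p-values are Benjamini-Hochberg over all tested probe sets.

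The plasmid cells carried a broad rise of interferon-induced transcripts. Of the 6251 tested probe sets, limma called 59 higher (0.944%) and 3 lower (0.048%) at an adjusted p under 0.05. The 59 represent 56 genes with a single symbol, and 47 of those belong to the interferon lists. Of the 3 probe sets without a single symbol, 2 have no symbol here and 1 has several, and none is named. On all 62 called probe sets the plasmid and vector arrays did not overlap. At an unadjusted p under 0.05 the counts were 310 higher (4.96%) and 239 lower (3.82%), and non-overlapping arrays alone were found for 19.5% of tested probe sets in the higher and 20.6% in the lower direction.

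The interferon lists name 244 genes in 17 functional classes. A probe set was present for 172 of them, 146 passed the filter on low signals and 26 did not. Of the 146, 47 were called higher, 0 lower (2 at an unadjusted p under 0.05) and 99 were not called, and 118 had a change above 0. The median log2 change was 0.81, against -0.02 for the 5406 tested genes outside the lists, of which 9 were called higher and 3 lower. The lists were chosen with earlier results of these data known, so this contrast is a description and no test. Within array numbers 1 the interferon median was 0.78 and within numbers 2 it was 0.79. Only IDO1 passed the filter through the plasmid arrays alone, and it was not called.

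The calls rest on a prior for the variance that depends on mean signal. With a prior that does not, 9 probe sets were called higher and 0 lower, 6 of the former from the interferon lists. Without control 2 the count of higher calls was 114, and over the 4 single arrays left out it ran from 40 to 114 while the interferon count ran from 35 to 47.

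**Figure D1:**
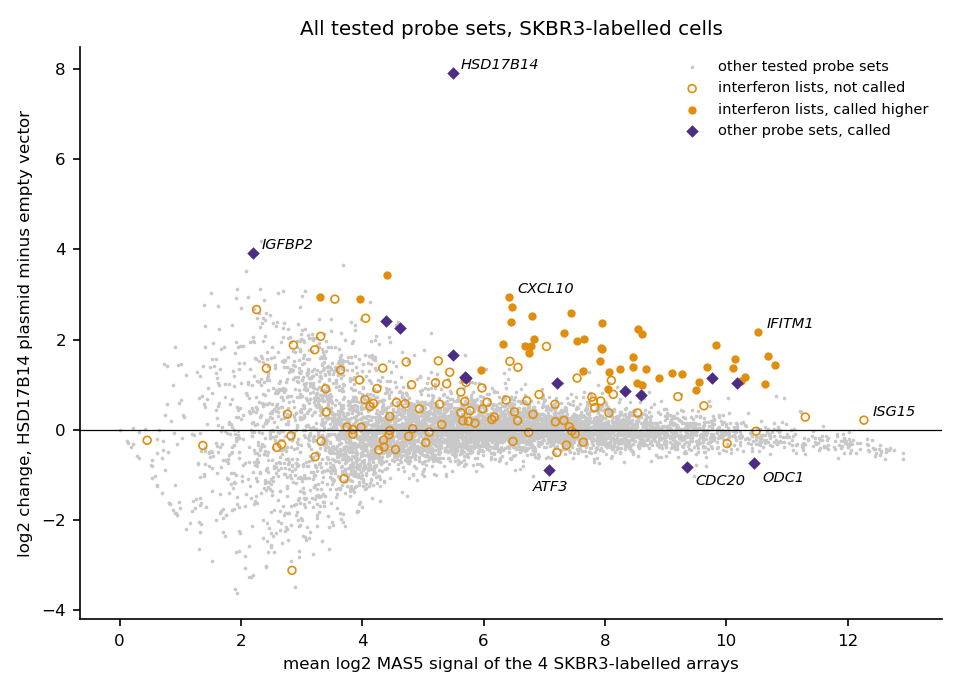
Log2 change (HSD17B14 plasmid minus vector, vertical axis) against the mean log2 signal of the 4 SKBR3-labelled arrays (horizontal axis), 1 point per tested probe set. Filled orange points are interferon-list probe sets called higher, open orange points those not called, and purple diamonds the other called probe sets, with HSD17B14 at 7.91 and the 3 lower calls (ODC1, CDC20, ATF3) at the lower edge of the cloud.

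The promoters of the genes that moved together were read from RefSeq (GRCh38.p14), in windows from 250 bases before to 50 bases after the transcript start. The ISRE core was searched as GAAANNGAAA on both strands. Windows were matched for 39 of the 47 called interferon genes, and 28 of those (71.8%) held the core. It was in 16 of 71 windows (22.5%) of interferon-list genes that were not called, in 0 of 8 windows of called genes outside the lists, and in 3.65% of the 27305 windows of all genes. The gamma-activated sequence (GAS), which STAT dimers bind, was searched as TTCNNNGAA. It was in 10 of the 39 windows (25.6%), in 10 of 71 windows (14.1%) of interferon-list genes that were not called, in 1 of 8 windows of called genes outside the lists, and in 7.94% of all windows. A match is a run of letters and no measured binding, and many list members are known as interferon targets because of such elements. The stretches below belong to called genes and show how the element recurs in genes of different function. They run 5′ to 3′ on the gene's strand with the core in capitals (written TTTCNNTTTC where it lies on the other strand). Only cores that end before the transcript start are marked. IFITM1 and IFIT5 each hold a further core, beginning at -6 and -4 from the start, which runs past it and is not marked.
BST2: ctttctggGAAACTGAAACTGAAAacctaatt
CXCL10: atgttttgGAAAGTGAAAcctaattc
IFI27: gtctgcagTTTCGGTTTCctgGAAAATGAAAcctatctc
IFIT1: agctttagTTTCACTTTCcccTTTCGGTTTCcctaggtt
IFIT3: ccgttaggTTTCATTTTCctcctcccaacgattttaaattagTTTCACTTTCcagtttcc
IFIT5: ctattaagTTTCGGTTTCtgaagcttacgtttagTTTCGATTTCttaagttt
IFITM1: aacagcagGAAATAGAAActtaagag
IFITM3: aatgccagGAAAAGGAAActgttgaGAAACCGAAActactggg
ISG20: acaaactaGAAACTGAAAcagggtcg
RTP4: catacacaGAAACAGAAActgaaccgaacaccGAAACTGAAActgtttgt

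These stretches lie at chr19:17405737-17405768 (BST2, minus strand), chr4:76023701-76023726 (CXCL10, minus strand), chr14:94110620-94110658 (IFI27, plus strand), chr10:89392499-89392537 (IFIT1, plus strand), chr10:89327833-89327892 (IFIT3, plus strand), chr10:89414515-89414566 (IFIT5, plus strand), chr11:313992-314017 (IFITM1, plus strand), chr11:320878-320920 (IFITM3, minus strand), chr15:88638939-88638964 (ISG20, plus strand) and chr3:187368335-187368384 (RTP4, plus strand). All are upstream of the annotated start. In BST2 the 2 cores overlap by 4 bases, and in IFIT1 they are parted by 3 bases.
For comparison, the 40 bases before the start of 2 strongly called genes hold no match to the exact pattern GAAANNGAAA. They lie at chr12:112906922-112906961 (OAS1, plus strand) and chr11:57567673-57567712 (UBE2L6, minus strand). The OAS1 stretch does hold GAAA repeated with a shorter gap (gaaacgaaa), which this pattern does not cover, so it is not shown to lack the element.
OAS1: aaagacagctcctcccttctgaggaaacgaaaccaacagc
UBE2L6: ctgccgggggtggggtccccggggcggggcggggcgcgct

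The top of the pathway showed little. Of the 14 interferon genes with a probe set, 9 were not tested and read at most 21.2 on any of the 4 arrays. The 5 tested ones, IFNB1 and IFNA4, IFNA7, IFNA10 and IFNA17, gave 0 calls and 0 unadjusted p under 0.05 in limma. IFNB1, the fibroblast interferon, read 21.9 and 19 in plasmid cells and 23.5 and 1 in vector cells, so the groups overlapped. The fitted change of 2.07 rested on single controls: it was 4.35 and called without control 1 (limma adjusted p = 0.000436), -0.20 without control 2, and 0 with values raised to the floor. Signals of this size lie near or under the floor, so no direction is given for ligand RNA. Of 7 tested receptor and JAK genes none was called either (0 at an unadjusted p under 0.05), with a median log2 change of 0.18. JAK1, the kinase shared by all interferon receptors, read 161.7, 193.2, 189.1 and 186.7, with overlap. IFNGR2, the gamma receptor's second chain, read 158 and 151.5 against 141.9 and 131.6 (0.18 ± 0.18, adjusted p = 0.911).

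Among 8 tested STAT and IRF factors, 1 was called and the median was 0.52. IRF7, the factor that amplifies interferon alpha transcription, read 546.9 and 550.1 with the insert and 334.6 and 229.5 without it. All plasmid values lay above the controls, and the change was 0.99 ± 0.18 (adjusted p = 0.0209). IRF9, the DNA-binding partner of the STAT complex, read 323.3 and 287 against 212 and 179.8 without passing (0.64 ± 0.15, adjusted p = 0.101). IRF1 read 105.8 and 102.6 against 53.9 and 80.5 (0.66 ± 0.24, adjusted p = 0.423), and STAT3, which transmits interleukin signals, 284.4 and 328.6 against 240 and 230.1 (0.38 ± 0.15, adjusted p = 0.489). IRF3, the factor that sensors activate directly, overlapped between groups at 95.1, 70.8, 108.4 and 88.5.

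Of 11 tested feedback inhibitors 1 was called. USP18, the protease that removes ISG15 and blocks the interferon receptor, read 246.8 and 211.8 with HSD17B14 plasmid against 67 and 47.3 with vector. The groups were wide apart and the change was 2.02 ± 0.19 (adjusted p = 0.000129). SOCS1, an inhibitor of JAK kinases, lay under the floor on all 4 arrays at 10, 14.5, 2 and 1.8, so no fold is given. The list median was 0.06, and the best expressed other members did not pass: PTPN2, a STAT phosphatase, read 210.2, 157.7, 259.7 and 186, and SOCS2 137.1, 157.1, 189 and 181.7.

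Nucleic acid sensors were higher in 3 of 9 tested cases, with a median of 1.35. RIGI, the RNA helicase RIG-I, read 615.7 and 612.1 in plasmid cells and 177.8 and 227.6 in vector cells (1.61 ± 0.16, adjusted p = 0.000146). IFIH1, the helicase MDA5, read 205.6 and 187.2 against 59.9 and 49.2 (1.85 ± 0.24, adjusted p = 0.00135). The DNA sensor IFI16 read 715.9 and 599.9 against 272.1 and 244 (1.35 ± 0.22, adjusted p = 0.0072). In all of these the lowest plasmid array was above the highest control. TLR3, the endosomal receptor for double-stranded RNA, read 62.8 and 66.9 against 19.1 and 26.4 and just missed (1.53 ± 0.33, adjusted p = 0.0602). MYD88, the adaptor of most Toll-like receptors, read 277.1 and 281.8 against 194 and 167.4 (0.63 ± 0.14, adjusted p = 0.083). The kinase TBK1, which activates IRF3, overlapped at 73.4, 86.7, 53.8 and 80.

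AIM2, a cytosolic DNA sensor, is a case where the other line set the error. It read 245 and 253.6 with the insert and 71.9 and 66.6 without it, with narrow spread and no overlap. In the fit of all 8 arrays, which shares 1 variance per probe set across both lines, it did not pass (1.85 ± 0.91, adjusted p = 0.598). Fitted on the 4 SKBR3-labelled arrays alone the same change carried a standard error of 0.17 and passed (adjusted p = 0.00091). That fit called 64 probe sets higher (1.02%) and 63 genes in all, of which 49 were shared with the 59 genes of the fit of 8 arrays. The 14 it added included 4 interferon-list genes, namely AIM2, ADAR, GBP1 and IL6. The 10 genes it did not call were TRIM21 (adjusted p = 0.063), WARS1 (0.0564), LAMP3, LGALS9, S100A9 (0.0699), CYP2J2 (0.0647), SERPINA3 (0.118), ID3 (0.246), IGFBP2 (0.223) and ATF3 (0.0528).

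The antiviral effectors of the OAS, MX and PKR list had the highest median, 1.89, with 8 of 11 tested members called. OAS1, an oligoadenylate synthetase that switches on RNase L, read 434.3 and 418.6 with HSD17B14 plasmid against 81.5 and 62.2 with vector, 5.99-fold higher (2.58 ± 0.16, adjusted p = 7.53e-06). OAS2 read 299.2 and 239.7 against 34.6 and 62.9 (2.52 ± 0.24, adjusted p = 0.000132). MX2, a dynamin-like GTPase that restricts retroviruses, read 549.5 and 575.9 against 109 and 110.4 (2.36 ± 0.29, adjusted p = 0.000781). Plasmid and vector values were separated by more than 3 times in each of these genes.
ISG20, an exonuclease for single-stranded RNA, read 338.3 and 340.1 against 66.6 and 87.9 (2.15 ± 0.17, adjusted p = 3.48e-05). MX1, the cytoplasmic GTPase against influenza, read 1766.8 and 1751.1 against 498.1 and 454.9 (1.89 ± 0.13, adjusted p = 1.73e-05). OAS3 read 459 and 452.1 against 118.4 and 143.8 (1.80 ± 0.15, adjusted p = 5.25e-05). The synthetase-like OASL rose by 1.98 ± 0.16 and EIF2AK2, the translation-blocking kinase PKR, by 1.28 ± 0.17 (adjusted p = 6.11e-05 and 0.00158).
ADAR, the RNA editing deaminase, read 802.8 and 722.3 against 472.3 and 442.2 and missed the threshold (0.74 ± 0.16, adjusted p = 0.0601), but passed with the 4 arrays alone (adjusted p = 0.0335). APOBEC3B, a DNA cytidine deaminase, went the other way without passing, at 124.7 and 124 against 185.8 and 166.7 (-0.50 ± 0.19, adjusted p = 0.474). APOBEC3G read 13, 15, 0.9 and 14.4, under the floor.

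All 7 tested members of the IFIT and related list were called, with a median of 1.30. RTP4, a receptor chaperone induced by interferon, read 200.7 and 202.2 in plasmid cells and 29.4 and 50.1 in vector cells (2.39 ± 0.27, adjusted p = 0.000468). IFI44L read 478.6 and 437.7 against 118.2 and 149.6 (1.78 ± 0.17, adjusted p = 0.000132). NMI, a protein that binds STAT and MYC factors, read 451.7 and 528.5 against 171.2 and 213.7 (1.35 ± 0.17, adjusted p = 0.000781). The changes were smaller in the IFIT genes, whose proteins bind viral RNA ends.
IFIT5 read 334.4 and 293.9 against 136.1 and 119.5 (1.30 ± 0.19, adjusted p = 0.00356). IFIT3 read 1943.1 and 1841 against 810.2 and 876.5 (1.17 ± 0.13, adjusted p = 0.000445). IFIT1 read 2102.5 and 2446.8 against 1045.4 and 1210.3 (1.01 ± 0.15, adjusted p = 0.00482). In all 3 the vector cells already gave signals well above the floor, and the groups did not overlap. IFI44 rose by 0.87 ± 0.15 (adjusted p = 0.0134).

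Membrane and vesicle proteins were called in 11 of 12 tested cases (median 1.67). IFITM1, a surface protein that hinders viral entry, read 2956 and 3296.4 with the insert and 668.6 and 717 without it (2.17 ± 0.13, adjusted p = 7.53e-06). BST2, tetherin, which holds budding virions at the membrane, read 808.7 and 807.6 against 130.8 and 225.9 (2.23 ± 0.21, adjusted p = 0.000129). IFI6, a mitochondrial and reticulum protein, read 223.7 and 193.8 against 55.5 and 60.1 (1.85 ± 0.18, adjusted p = 0.000132). None of the arrays overlapped.
LY6E, a lipid-anchored surface protein, read 206.3 and 180.1 against 54.7 and 65 (1.69 ± 0.17, adjusted p = 0.000162). The endosomal IFITM3 read 2887.7 and 2983.1 against 1064.8 and 826.1 (1.65 ± 0.16, adjusted p = 0.000129). IFI27 read 2860.4 and 3026.8 against 1017.6 and 1170 (1.43 ± 0.16, adjusted p = 0.000441). PLSCR1, a phospholipid scramblase, rose by 1.40 ± 0.16, IFITM2 by 1.38 ± 0.15 and LGALS3BP, a secreted galectin ligand, by 1.27 ± 0.16.
The vector arrays of LGALS9, a galectin, and LAMP3, a lysosomal membrane protein, were under the floor. LGALS9 read 31.2 and 24 against 5 and 2.5, a rise of at least 1.55-fold (adjusted p = 0.00608), and LAMP3 read 42.6 and 42.7 against 12.5 and 2.6, a rise of at least 2.42-fold (adjusted p = 0.028). Both lost their calls with the 4 arrays alone (adjusted p = 0.181 and 0.208). CD47, the signal that inhibits phagocytosis, was the member that did not pass (409.9 and 437.7 against 373 and 285.9, 0.38 ± 0.17). IFITM1, IFITM2 and IFITM3 are near-identical in places, and the IFITM2 and IFITM3 probe sets may each bind the other transcript.

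**Figure D2:**
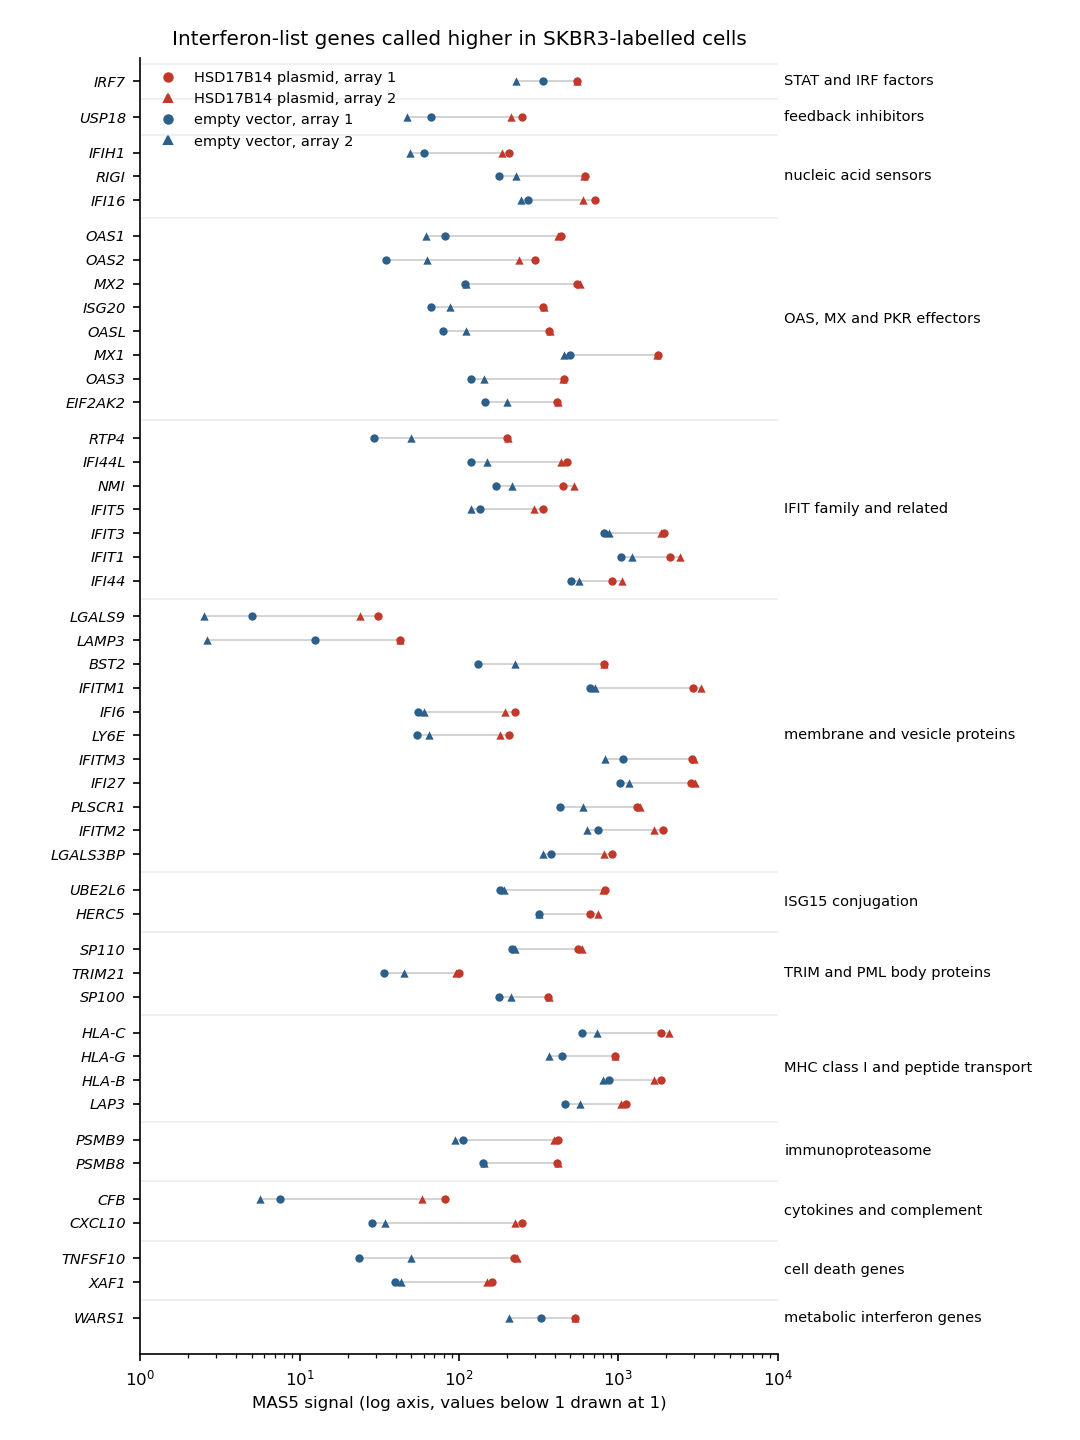
MAS5 signal on a log axis of the 47 interferon-list genes called higher, grouped by functional class and ordered by change within a class. Each row has 4 points (red, HSD17B14 plasmid; blue, vector; circle, array 1; triangle, array 2), and the red points lie to the right of the blue ones in every row.

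Of 5 tested genes of ISG15 conjugation 2 were called. UBE2L6, the E2 enzyme that carries ISG15, read 822.4 and 805 with HSD17B14 plasmid against 181.9 and 191.4 with vector, 4.36-fold higher (2.13 ± 0.13, adjusted p = 7.53e-06). HERC5, the ligase that attaches ISG15, read 665.9 and 741.5 against 316.2 and 319 (1.15 ± 0.15, adjusted p = 0.00108). ISG15 itself, the ubiquitin-like modifier, read 5026.9 and 5636.5 against 4770.5 and 4402.5 and was not called (0.22 ± 0.21, adjusted p = 0.905). The plasmid arrays lay above the controls without passing. After quantile normalization the change was 0.67 and ISG15 was called (adjusted p = 0.0089 in limma), the only one of 13 alternatives that called it. TRIM25 and ARIH1, further ligases, were not called either.

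Of 6 tested TRIM and PML body genes 3 were called (median 0.74). SP110, a nuclear body protein, read 557.7 and 590.2 in plasmid cells and 214.4 and 224.8 in vector cells (1.39 ± 0.13, adjusted p = 0.000129), while its second probe set gave 1.15 and missed (adjusted p = 0.055). TRIM21, a cytosolic antibody receptor, read 100 and 95.8 against 33.8 and 45.1 (1.33 ± 0.22, adjusted p = 0.00974). SP100 read 362.4 and 367.7 against 178.3 and 213.1 (0.91 ± 0.18, adjusted p = 0.0395). PML itself did not pass, at 28.2 and 36.1 against 18.9 and 24.1, nor did TRIM38 (179.7 and 173 against 128.1 and 110.4, 0.57 ± 0.21). Both tested guanylate-binding GTPases had non-overlapping arrays without passing in limma: GBP1 read 184.9 and 116 against 50.8 and 51.3 (1.52 ± 0.40, adjusted p = 0.16) and GBP2 50.7 and 55.5 against 20.5 and 32.3 (1.04 ± 0.41, adjusted p = 0.481). Alone, the 4 arrays gave an adjusted p of 0.0275 for GBP1.

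Among genes of MHC class I presentation, 3 heavy chains were called and the shared light chain was not. HLA-C read 1849.5 and 2068.4 with the insert and 594.5 and 735.1 without it (1.57 ± 0.15, adjusted p = 0.000129). HLA-B read 1859.2 and 1674.6 against 869 and 803.8 (1.08 ± 0.14, adjusted p = 0.00128). HLA-G read 955.3 and 950.3 against 443.9 and 367 (1.24 ± 0.21, adjusted p = 0.0129). These 3 probe sets are of the kind that can bind several HLA transcripts, so the split between the genes is uncertain.
LAP3, a leucine aminopeptidase, read 1114.5 and 1047.1 against 465.3 and 578.8 (1.06 ± 0.16, adjusted p = 0.00373). B2M, the light chain, read 2454.5 and 3172.2 against 2166.9 and 2422.3 and did not pass (0.28 ± 0.16, adjusted p = 0.7). HLA-E read 293.2 and 274.7 against 181.9 and 161.6 (0.73 ± 0.17, adjusted p = 0.0874). Of 13 tested members 4 were called (median 0.79). TAPBP, which bridges the peptide transporter to class I, read 164 and 152.7 against 90.9 and 92.9 (0.78 ± 0.24, adjusted p = 0.282). The chaperone CANX gave -0.30 and 0.49 on its 2 probe sets and passed on neither.

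Proteasome subunits that interferon induces, which replace the standing catalytic subunits and favour class I peptides, were called in 2 of 4 cases. PSMB9 read 419.1 and 394.2 with HSD17B14 plasmid against 106.6 and 93.8 with vector (2.02 ± 0.19, adjusted p = 0.000129). PSMB8 read 411.3 and 416 against 141.8 and 143.8 (1.53 ± 0.16, adjusted p = 0.000268). The third inducible catalytic subunit, PSMB10, read 79.6 and 71.6 against 23.9 and 55.4 (1.05 ± 0.32, adjusted p = 0.282) and the regulator PSME1 926.5 and 984.1 against 655.7 and 663.4 (0.53 ± 0.13, adjusted p = 0.11). Of 25 tested constitutive proteasome genes limma called 0 (1 higher and 5 lower at an unadjusted p under 0.05), with a median of -0.10. PSMD2, a scaffold subunit of the regulatory particle, read 632.1 and 703.6 against 1005.1 and 877.3 (-0.49 ± 0.15, adjusted p = 0.257).

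MHC class II genes stayed at low signals and none of 8 was called (3 higher and 1 lower at an unadjusted p under 0.05). HLA-DRA, the DR alpha chain, read 34.4 and 29.6 against 3.6 and 5.1 without passing (adjusted p = 0.135). CD74, the invariant chain, read 75.9 and 99.2 against 53.9 and 38.5 (0.93 ± 0.38, adjusted p = 0.508). CIITA, the class II transactivator, read 1.8 and 3.3 against 27.9 and 15.9, with 3 of the 4 values under the floor, and did not pass (adjusted p = 0.459).

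Of 13 tested cytokine and complement genes 2 were called. CXCL10, the chemokine that draws CXCR3-bearing lymphocytes, read 250.2 and 225.9 in plasmid cells and 28.3 and 34.2 in vector cells, 7.64-fold higher (2.93 ± 0.22, adjusted p = 3.48e-05). CFB, complement factor B of the alternative pathway, read 81.9 and 59 against 7.5 and 5.6, a rise of at least 3.95-fold (adjusted p = 0.0306), and lost its call without any single one of the 4 arrays. CXCL9 and CXCL11, which use the same receptor as CXCL10, overlapped between groups with no value above 26. CCL5, also a lymphocyte chemokine, read 22.2, 19.7, 31.1 and 16.3.
IL6, an acute-phase cytokine, read 153.1 and 153.3 against 53.8 and 63.9 and did not pass (1.39 ± 0.32, adjusted p = 0.0848), but did with the 4 arrays alone (adjusted p = 0.0114). IL15RA, which presents IL15, read 77 and 76.3 against 24.6 and 49.7 (1.13 ± 0.44, adjusted p = 0.473) and IL15 59.1 and 68.2 against 51.5 and 43.3. A group of 6 more members, CCL2 and C1S among them, was not tested and read at most 13.2.

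Among 15 tested cell death genes 2 were called (median 0.84, all 15 changes above 0). TNFSF10, the death ligand TRAIL, read 222.7 and 231.7 with the insert and 23.6 and 49.9 without it, 6.62-fold higher (2.73 ± 0.30, adjusted p = 0.000391). XAF1, an antagonist of the apoptosis inhibitor XIAP, read 161.1 and 149.6 against 39.7 and 43.2 (1.91 ± 0.23, adjusted p = 0.000676). TNFRSF10B, a TRAIL receptor, overlapped at 162, 188.1, 179.2 and 154.9. PMAIP1, the death effector NOXA, read 606.5 and 267.6 against 239.1 and 148.5, with a wide gap between the plasmid arrays (1.10 ± 0.35, adjusted p = 0.328). CASP8, the initiator caspase below TRAIL receptors, read 52.3 and 68.3 against 26.6 and 32.6 (1.02 ± 0.35, adjusted p = 0.399).

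Metabolic interferon genes had a median of 0.09, near the -0.02 of genes outside the lists, and 1 of 10 was called. WARS1, the tryptophanyl-tRNA synthetase, read 535.3 and 532.2 with HSD17B14 plasmid against 324.9 and 204.8 with vector (1.05 ± 0.20, adjusted p = 0.0268). TXNIP, which binds thioredoxin, read 1421.4, 1432.2, 1415.6 and 1495.2, and GCH1, the first enzyme of tetrahydrobiopterin synthesis, 178.9, 168.7, 207.6 and 150.6. Both overlapped between groups.

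**Figure D3:**
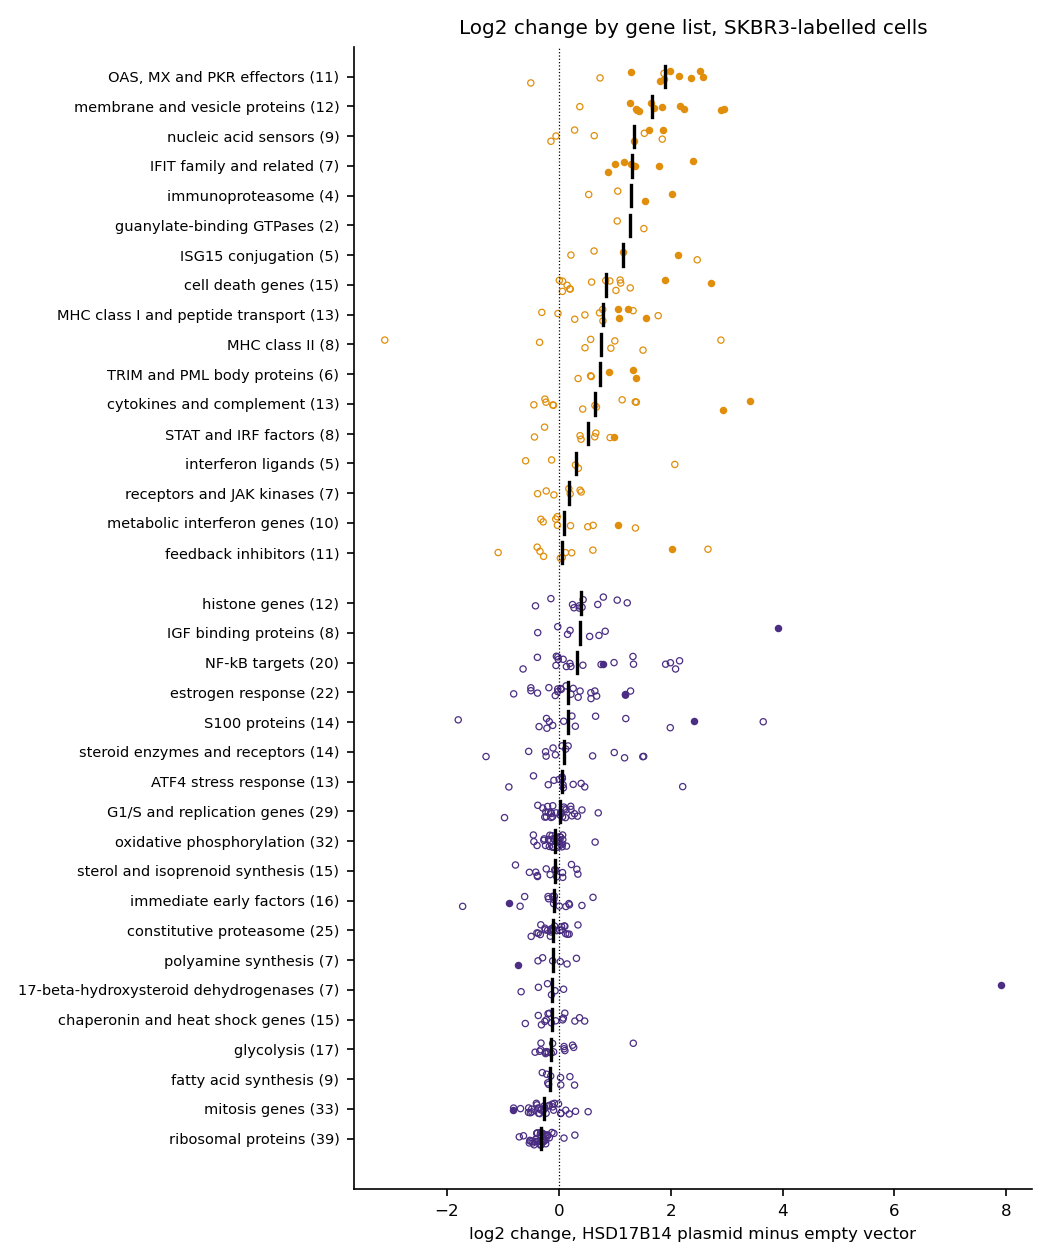
Log2 change of every tested gene of the 17 interferon lists (orange) and 19 other lists (purple), with the number tested in parentheses. Filled points are called genes, open points those not called, and black bars are list medians, which run from 0.06 to 1.89 in the interferon lists and from -0.31 to 0.39 in the others.

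Outside the interferon lists 9 genes were called higher, HSD17B14 included. S100A9, a calcium-binding alarmin subunit, read 54.2 and 43.1 in plasmid cells and 7.4 and 11.1 in vector cells, a rise of at least 2.75-fold (adjusted p = 0.000113). Its partner S100A8 read 48 and 43.6 against 0.7 and 13.2 and missed (adjusted p = 0.0662). IGFBP2, which binds insulin-like growth factors, read 14.8 and 21.4 against 1.4 and 0.7. Its plasmid values straddle the floor, the fold is at least 1.01, and with values raised to the floor the change was 0.14 and no call remained. CYP2J2, an epoxygenase of arachidonic acid, read 44.2 and 65.2 against 9.8 and 12.8, a rise of at least 3.05-fold (adjusted p = 0.0102).
MYL12B, a myosin regulatory light chain, read 1466.3 and 1906 against 734.2 and 891.8 (1.05 ± 0.16, adjusted p = 0.00608). SDC4, a heparan sulfate proteoglycan, read 439.7 and 435.3 against 254.2 and 226 (0.87 ± 0.14, adjusted p = 0.00626). SERPINA3, an acute-phase protease inhibitor, read 73.9 and 82 against 34.8 and 34 (1.18 ± 0.23, adjusted p = 0.0293). All arrays of these genes were apart, and the changes were near those of the smaller interferon calls.
ID3, an inhibitor of helix-loop-helix factors, read 102.2 and 59.8 against 38.1 and 32.3 (1.16 ± 0.24, adjusted p = 0.0431). NFKBIA, the inhibitor that NF-kB induces to restrain itself, read 475.8 and 540.4 against 315.5 and 274.9 (0.78 ± 0.16, adjusted p = 0.0458). These 2 calls were the least steady, since ID3 failed under 10 and NFKBIA under 8 of 13 alternatives.

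NFKBIA was the only one of 20 tested NF-kB targets that passed, and the list median was 0.32 (4 higher, 0 lower at an unadjusted p under 0.05). CXCL1, a neutrophil chemokine, read 66.9 and 82.6 with the insert and 12.9 and 21.5 without it (2.16 ± 0.52, adjusted p = 0.11). CXCL2 read 211.7 and 177.7 against 45 and 59.3 (1.91 ± 0.56, adjusted p = 0.253). Both passed in the fit of the 4 arrays alone (adjusted p = 0.0373 and 0.00239). TNFAIP3, the A20 protein, overlapped at 163.9, 173.4, 168.9 and 151.3, as did NFKB1 at 153.5, 115, 129.2 and 140.1. The kB motif, which NF-kB binds, was present in the NFKBIA promoter window, in 1 of 8 windows of called genes outside the interferon lists and in 0.571% of all windows. The windows of CXCL1, CXCL2, TNFAIP3 and NFKB1, which were not called, held it too, as did 3 of 39 windows (7.69%) of called interferon-list genes.

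Only 3 genes were called lower. ODC1, the rate-setting enzyme of polyamine synthesis, read 1074 and 1117.6 with HSD17B14 plasmid against 1873.7 and 1777.7 with vector (-0.74 ± 0.13, adjusted p = 0.0201). CDC20, the activator of the anaphase-promoting complex, read 465.1 and 526.7 against 892 and 850.4 (-0.82 ± 0.16, adjusted p = 0.0268). ATF3, a stress-induced transcription factor, read 95.1 and 104.6 against 191.6 and 178.5 (-0.89 ± 0.17, adjusted p = 0.0285). All plasmid arrays were below the controls. None of the 3 kept its call with median-centred arrays, where 0 probe sets were called lower, and without plasmid array 1 the count was also 0.

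Neighbours of these genes did not pass. Of 7 polyamine genes SRM, spermidine synthase, read 221.4 and 237.9 against 338.6 and 260.6 (-0.37 ± 0.18, adjusted p = 0.583). Of 33 mitosis genes 27 had changes below 0, 12 had an unadjusted p under 0.05 in that direction and 22 had non-overlapping arrays, but CDC20 alone passed. Of all tested probe sets, 3.82% were lower at that unadjusted p and 20.6% were lower without overlap. The median of the mitosis genes was -0.27 and it ran from -0.32 to -0.20 with single arrays left out. UBE2S, the ubiquitin-conjugating enzyme that elongates chains for the same complex, read 674.7 and 554.4 against 1331.9 and 860.6 (-0.81 ± 0.20, adjusted p = 0.109). AURKA, a spindle kinase, differed by probe set, at -0.48 on one and 0.16 on the other. G1/S and replication genes had a median of 0.02 over 29 and 0 calls (2 higher and 2 lower at an unadjusted p under 0.05). CDKN1B, the inhibitor p27, read 158 and 163.1 against 85.2 and 113.8 (0.71 ± 0.19, adjusted p = 0.192).

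Ribosomal protein genes lay below 0 in 37 of 39 tested cases, with a median of -0.31 and 0 calls (11 lower, 0 higher at an unadjusted p under 0.05). RPL38 read 272.3 and 227 in plasmid cells and 385.8 and 427.1 in vector cells (-0.71 ± 0.19, adjusted p = 0.183), and RPL7 3354.9 and 3697.2 against 5277.8 and 4810.2 (-0.52 ± 0.16, adjusted p = 0.273). The median was -0.43 within array numbers 1 and -0.20 within numbers 2, and -0.08 after quantile normalization. Summed ribosomal signal was 115362 and 127900 in plasmid cells against 160678 and 147670 in vector cells, highest on control 1, the array that stood apart. With single arrays left out the change ran from -0.84 to -0.58 for RPL38 and from -0.59 to -0.45 for RPL7. The part of control 1 in the shift of the list was not tested.

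Other lower neighbours of the threshold included FDPS, farnesyl diphosphate synthase of the sterol pathway, at 555.6 and 556.6 against 895.7 and 1011.5 (-0.78 ± 0.16, adjusted p = 0.0542), which passed in the 4 arrays alone (adjusted p = 0.0236). The other 14 tested sterol genes did not pass, and the list median was -0.07. CCT7, a chaperonin subunit, read 641.5 and 678.2 against 1150.7 and 867.1 (-0.60 ± 0.16, adjusted p = 0.183). Genes of oxidative phosphorylation (32 tested, median -0.06), glycolysis (17, -0.14), fatty acid synthesis (9, -0.15) and the ATF4 response (13, 0.06) had 0 calls in limma, with 0 to 1 higher and 1 to 2 lower at an unadjusted p under 0.05.

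Histone genes had a median of 0.39 with 0 calls of 12 (5 higher, 0 lower at an unadjusted p under 0.05). H2AC6 read 802.8 and 799.7 against 453.4 and 469.8 and was the gene closest above the threshold (0.80 ± 0.17, adjusted p = 0.0527). H2BC9 read 431.2 and 347.4 against 149.2 and 236.1 (1.04 ± 0.25, adjusted p = 0.109).

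Genes of the enzyme's own family and of steroid action gave few calls. Apart from HSD17B14, 0 of 6 tested HSD17B genes were called (1 lower at an unadjusted p under 0.05). HSD17B12, which serves fatty acid elongation, read 526.3 and 563.2 against 678.1 and 724.7 (-0.37 ± 0.13, adjusted p = 0.44), and HSD17B4, the peroxisomal enzyme, 143 and 145.4 against 126.8 and 145.7. Of 14 tested steroid enzymes and receptors 0 were called (1 in each direction at an unadjusted p under 0.05), and of 22 estrogen response genes SERPINA3 alone. ESR1, the estrogen receptor, read 24.6, 16, 24.4 and 14.9. CA12, a carbonic anhydrase that estrogen induces, read 68.6 and 71.9 against 48.3 and 46.2 (0.57 ± 0.14, adjusted p = 0.106).

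**Figure D4:**
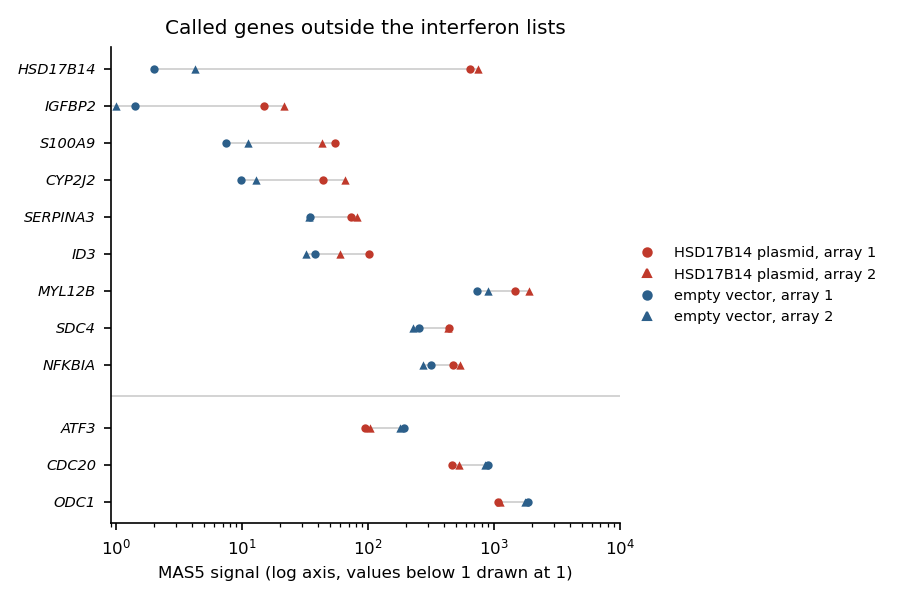
MAS5 signal on a log axis of the 9 genes called higher (above the line) and the 3 called lower (below it) outside the interferon lists, with symbols as in the plot of interferon genes. The red plasmid points and blue vector points do not overlap in any row, and the gap is widest for HSD17B14.

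ZR75-1 cells given the same plasmid served to ask whether the interferon change was as large there. ZR75-1 arrays have their own controls, so the fitted changes of the lines share no array. Their standard errors are shared, because the fit takes the same variance per probe set for both lines. Calls in both lines are therefore not independent. In ZR75-1 limma called 46 probe sets higher (0.736%), 12 of them interferon-list genes by their representative probe set, and the interferon median was 0.20 against 0.81. Both lines called 11 of these genes, which is 11 of the 47 in the SKBR3-labelled cells and 11 of the 12 in ZR75-1. They are CFB, CXCL10, HERC5, IFI27, IFI6, IFIT3, IFITM1, IFITM3, ISG20, UBE2L6 and XAF1.
All 47 had the larger fitted change in the SKBR3-labelled cells, where they were selected. The difference between lines was itself tested, and 35 probe sets (0.56%) passed as larger in the SKBR3-labelled cells, 20 of them interferon-list genes, with 0 interferon genes larger in ZR75-1. LY6E changed by 1.69 here and by -0.65 there (difference 2.34 ± 0.24, adjusted p = 0.00111), and MX1 by 1.89 and -0.18 (2.07 ± 0.18, adjusted p = 0.00106). IFI27 changed by 1.43 and 1.34, with a difference of 0.10 that did not pass (adjusted p = 0.898). CXCL10 changed by 2.93 and 1.76 (difference 1.18, adjusted p = 0.148). Vector signals also differed between the lines. LY6E read 364.9 and 406.8 in ZR75-1 vector cells against 54.7 and 65 here. MX1 read 1758.7 and 1721.7 there and 498.1 and 454.9 here, where plasmid cells reached 1766.8 and 1751.1. IFITM1 went the other way, at 460.7 and 479 in ZR75-1 vector cells against 668.6 and 717 here. The part of these vector levels in the differences was not tested. The count of 35 was 0 with the prior that ignores the mean, 6 with median centring, 5 without plasmid array 1 and 10 without plasmid array 2. HSD17B14 reached 107.5 and 135.3 in ZR75-1 against 650.7 and 743.6 here, and the part of this gap in the difference was not tested.

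**Figure D5:**
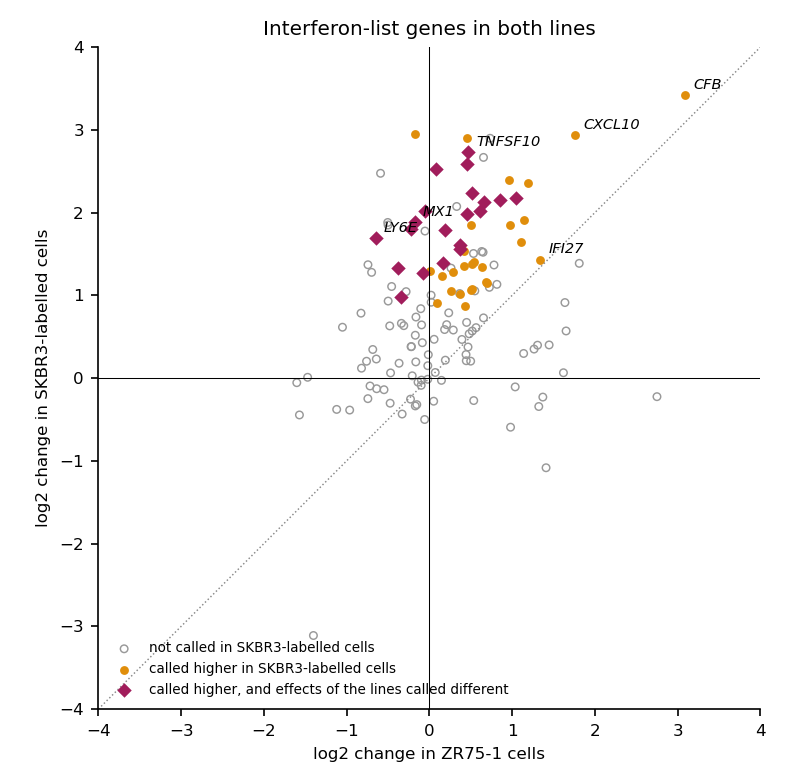
Log2 change of the 146 tested interferon-list genes in SKBR3-labelled cells (vertical axis) against ZR75-1 cells (horizontal axis). Orange points and magenta diamonds were called higher in the SKBR3-labelled cells, and diamonds also passed the test of the difference between lines. The dotted line marks equal changes, and 118 of the 146 genes lie above it.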

How the data were processed

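RNA of 8 samples was measured on Affymetrix arrays of 8793 probe sets. The deposited values are linear signal intensity computed by the authors with MAS5, per the submitters' processing notes. Equal trimmed means show that arrays were scaled to 1 level. The 47 Affymetrix control probe sets were left out. Values below 1 were raised to 1 and taken to log2. A probe set was tested if it exceeded its array's 40th percentile on at least 2 arrays. One model with 4 group means was fitted to all 8 arrays with limma 3.58.1 in R 4.3.3 (a variance prior that follows mean signal), with Benjamini-Hochberg adjustment over 6251 probe sets and a threshold of 0.05. A gene is represented by 1 probe set, and 7840 probe sets have a single symbol. Where both vector arrays lay under 17.6, the fold was computed against that value and is a minimum.

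Named genes were HSD17B14, ERBB2 and all called genes with a single symbol. To these came up to 4 uncalled members of each interferon list with the highest signal, up to 3 members of each other list with the largest moderated t, and the 10 lower genes nearest the threshold. Genes added to these after their values were seen are the cell type markers and IDO1, IFNA4, SOCS1, TAPBP, HLA-DRA, CIITA, CXCL9, CXCL11, CCL5, CCL2, C1S, CASP8, TNFAIP3, NFKB1 and HSD17B4. The members and lists were chosen with earlier results of these data known. Array numbers did not pair samples (correlation of deviations -0.035). Alternatives were the normalization, the filter, the log offset, the variance prior, the replicate block, the 4 arrays alone, the common floor and leaving out each array. The fit was tested on simulated data. Tables and figures were made with Python 3.11.15 and matplotlib 3.10.9. Promoter sequences are RefSeq's, on GRCh38.p14, and probe positions were not used here. The number of arrays limits the precision.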

Additional observations from a re-analysis of the deposited data

Results flagged for a closer look

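The plasmid effect in SKBR3-labelled cells was set against that in ZR75-1 by a test of the difference itself, and the differences below, in log2 units and SKBR3-labelled minus ZR75-1, passed it. Among antiviral effectors the difference was 2.44 for OAS2, 2.12 for OAS1, 2.07 for MX1, 2.03 for OAS3, 1.52 for OASL and 1.3 for ISG20. Among membrane and vesicle proteins it was 2.34 for LY6E, 1.72 for BST2, 1.35 for LGALS3BP and 1.12 for IFITM1. For IFI44L, of the IFIT and related list, it was 1.6. For the death ligand TNFSF10 it was 2.27. For the ISG15 enzymes it was 2.07 for USP18 and 1.46 for UBE2L6. Among TRIM and PML body genes it was 1.7 for TRIM21 and 1.22 for SP110. For the factor IRF7 it was 1.33 and for the sensor RIGI 1.25. For antigen presentation it was 1.42 for PSMB9 and 1.2 for HLA-C.

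Outside the interferon lists the difference was 5.21 for IGFBP2 and 2.14 for S100A9. The signals of IGFBP2 in SKBR3-labelled cells lie near or under the floor, and those of S100A9 in vector cells lie under it, so the sizes of both differences are not settled. In ZR75-1 IGFBP2 read 263.4 and 313.1 in plasmid cells against 839.1 and 598.3 in vector cells. The S100A9 change in SKBR3-labelled cells was 1.46 with values raised to the floor. The difference was 0.99 for SDC4 and 0.96 for TPI1, a glycolytic isomerase. It was -1.0 for ODC1 and -1.67 for RPL38, a ribosomal protein gene not called within the SKBR3-labelled cells. These calls depend on the variance prior, as the counts in the following section show.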

How the results depend on the processing

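No named called gene turned its sign under any of the 13 alternatives, and 34 of 59 called genes passed under each one except the prior that does not depend on mean signal. Only 6 passed under every one, namely CXCL10, IFITM1, ISG20, MX1, OAS1 and UBE2L6. That prior gave 9 probe sets called higher, 0 lower, 6 interferon genes and 0 differences between lines, where the fit reported has 59, 3, 47 and 35. The count called lower was 0 with median centring, 5 with the 60th percentile filter, 5 with log2(value + 32) and 6 with the replicate block. The replicate block gave 69 higher. Same-numbered SKBR3-labelled arrays had like spike-in levels, but their deviations did not correlate (-0.035), so the numbers were not taken as pairs. The interferon median of 0.81 was 0.79 after quantile normalization, 0.89 with median centring, 1.04 with the 60th percentile filter, 0.46 with log2(value + 32) and 0.62 at the common floor. Differences between lines numbered 23, 6, 18, 58 and 22 with quantile normalization, median centring, no filter, log2(value + 32) and the common floor. This last comparison of settings was added after the data were seen. Leaving out single arrays gave 40 to 114 called higher (114 without control 2), 0 to 11 lower, 35 to 47 interferon genes, a median of 0.73 to 0.82, and 5 to 40 differences. Where an array was left out its group held 1 array, which was assumed to vary like the others. The causes were not tested. Signals near 17.6 have little order.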
